A study of Rattus norvegicus with 6 samples.

Results

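The BCL2 family decides whether the outer membrane of the mitochondrion stays closed or opens to release cytochrome c, the step that starts apoptosis from within the cell. Its 10 members described here were chosen by gene symbol, at a time when earlier results of these data were known. They were 3 anti-apoptotic genes (Bcl2, Bcl2l1 and Mcl1), 2 pore-forming effectors (Bax and Bak1) and 5 genes of BH3-only proteins (Bad, Bid, Bcl2l11, Bbc3 and Pmaip1). All 10 symbols were found among the 19780 gene symbols of the count table, and all 10 passed the filter on low counts. Bulk RNA sequencing had counted poly(A) transcripts in pancreas of male wild-type Sprague-Dawley rats, an outbred strain, obtained at 8 weeks of age. One group of 3 samples had acute pancreatitis (AP) induced by intraperitoneal L-arginine, and the other group of 3 samples had received saline by the same route. Dose and time are recorded in 2 ways, as 5 mg/kg for 36 hours in the sample labels and as 2 times 2.5 g/kg with collection at 48 hours in the design text, and nothing in the labels settles which applied. The whole tissue was taken, so each value is a sum over all cell types of the gland, and a lower value from fewer cells of a type cannot be told apart from less RNA per cell.

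In this family the anti-apoptotic proteins BCL2, BCL-XL (encoded by Bcl2l1) and MCL1 hold BAX and BAK in check. BH3-only proteins sense different kinds of stress and either occupy the anti-apoptotic proteins or activate the effectors directly. In pancreatitis, acinar cells are known to die by both apoptosis and necrosis, and the balance between these forms of death is a classic theme of experimental pancreatitis. The comparison of AP with control pancreas asks which transcripts of this machinery differ between the groups.

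Libraries held between 14453584 and 18961353 counts over all rows. The 7 acinar markers that the table holds took 25.4% to 28.3% of the named counts in the control libraries. In AP they took 0.541% of replicate 1, 0.564% of replicate 2 and 3.98% of replicate 3, which kept more acinar transcript than the other AP libraries. All 7 were called lower in AP, also with library totals, and of 5 islet markers, present in both groups, 1 (Iapp) was called lower, a direction that turned with library totals. TMM, edgeR's scaling to the middle of the genes, gave factors of 0.467 to 0.476 in controls and 2.00 to 2.24 in AP, and when libraries were scaled by their totals alone the log2 fold change of the median gene was higher by 2.18. Values below are normalised CPM (counts scaled to TMM-adjusted library size), which put changes relative to most other genes, and directions that turn with library totals are named. All 6 markers common to leukocytes, all 6 macrophage markers and 4 of 4 tested neutrophil markers were called higher in AP. The summed level of the leukocyte markers was 42.5 to 49.4 normalised CPM in controls and 963 to 1264 in AP, and that of the macrophage markers was 109 to 139 and 4747 to 4893. Lymphocyte markers were called higher in 5 of 5 tested cases and fibroblast markers in 5 of 6, while of 5 endothelial markers 2 were higher and 1 (Kdr) was lower, which also turned with library totals. Mesothelial markers were called higher in 3 of 3 cases. Of 4 tested duct markers 2 were higher and 1 (Cftr) was lower, which turned with library totals. The 1 adipocyte marker tested was not called. Of the leukocyte, macrophage and neutrophil markers none was at 0 in all libraries of a group except the neutrophil gene Elane, in controls. The part of these cells in the results below was not tested.

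Of the 10 family genes, 7 rose and 1 fell in AP by edgeR's quasi-likelihood test (Benjamini-Hochberg adjusted p under 0.05 over 13240 tested genes), and Mcl1 and Bbc3 were not called. Over all tested genes 64.6% were called, 34.1% higher and 30.5% lower, so the 8 calls of 10 lay not far above the share of all genes. The groups did not overlap for 8 of the 10 genes, with AP above in 7 and below in 1, against 70.9% of all tested genes (37.8% with AP above and 33.1% below). The median log2 fold change was 1.27 over the 10 genes and 0.07 over all tested genes. Scaled by library totals, all 10 were called higher, as were 88.2% of all tested genes, and none was lower (4.32% of all). The members' median was then 3.44 and that of all genes 2.25. By role, the effectors rose in 2 of 2 cases and the BH3-only genes in 4 of 5, while of the 3 anti-apoptotic genes 1 rose, 1 fell and 1 was not called.

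The sequences upstream of 3 genes are shown because they mark both ends of the response among the 10 members. Of these, Pmaip1 and Bid had the largest rises and Bcl2 was the member that fell. Each is the 250 bases before an annotated start site on the gene's strand, from RefSeq on build GRCr8. The intervals are chr18:62255720-62255969 on the plus strand for Pmaip1, chr4:155808320-155808569 on the minus strand for Bid and chr13:23366901-23367150 on the minus strand for Bcl2. Capitals mark GGGCGG (the GC box) in Pmaip1 and Bid, TGACGT (the core of a cAMP response element) and an NF-kB site in Pmaip1, and TATAAA in Bcl2, on either strand.
Pmaip1: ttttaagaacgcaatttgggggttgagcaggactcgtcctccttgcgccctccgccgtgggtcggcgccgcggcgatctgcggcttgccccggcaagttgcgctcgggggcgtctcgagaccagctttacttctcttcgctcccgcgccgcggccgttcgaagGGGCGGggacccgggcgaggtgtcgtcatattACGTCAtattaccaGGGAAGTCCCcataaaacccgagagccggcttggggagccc
Bid: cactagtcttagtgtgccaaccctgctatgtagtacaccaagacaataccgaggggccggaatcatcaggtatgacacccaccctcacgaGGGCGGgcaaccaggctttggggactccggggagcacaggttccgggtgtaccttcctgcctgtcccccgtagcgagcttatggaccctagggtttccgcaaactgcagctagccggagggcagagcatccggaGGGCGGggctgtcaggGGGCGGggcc
Bcl2: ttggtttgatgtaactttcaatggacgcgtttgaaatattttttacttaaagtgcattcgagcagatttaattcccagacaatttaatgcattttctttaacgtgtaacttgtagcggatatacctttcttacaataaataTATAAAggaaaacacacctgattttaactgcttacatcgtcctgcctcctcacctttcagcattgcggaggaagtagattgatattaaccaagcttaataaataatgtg

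Of the 10 genes, 8 had an upstream window, and Bax and Bbc3 had none. The GC content of the window was 64.8% for Pmaip1, 62.8% for Bid and 33.6% for Bcl2, against a median of 51.2% over 33469 windows of the same length. The quartiles of all windows were 44% and 60%. Among the other members that rose, GC content was 72% for Bcl2l11, 57.6% for Bak1 and 52.4% for Bad. Mcl1, which was not called, had 62%, and the 4 windows of Bcl2l1 had 41.2% to 60%. GGGCGG was present upstream of Bak1, Bcl2l11, Bid, Mcl1 and Pmaip1 and in 30.5% of all windows. TGACGT was present upstream of Pmaip1 among the members and in 6.95% of all windows, and TATAAA upstream of Bcl2 and in 12.9%. The NF-kB site was matched upstream of Pmaip1 and Mcl1 and in 3.54% of all windows. These are matches of letters and say nothing of whether a factor binds.

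Bcl2, the founding anti-apoptotic gene, was alone among the 10 members in being called lower in AP with TMM scaling. Outside the 10, 5 other BCL2 family genes described below were also called lower. In the control libraries, in order of replicate as in all values that follow, Bcl2 stood at 25.8, 28.1 and 25.7 normalised CPM, and in the AP libraries at 8.70, 10.2 and 11.1. The groups lay far apart and the libraries within each were close. Bcl2 fell by 1.41 ± 0.144 (SE) on the log2 scale, a 2.65-fold difference (edgeR quasi-likelihood, adjusted p = 5.18e-05, n = 3 per group), but with library totals it was higher in AP by 0.77 (adjusted p = 0.00093), below the median of all genes in that scaling. Its raw counts were 208, 222 and 160 in controls and 353, 411 and 378 in AP.

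Bcl2l1, whose main product BCL-XL guards mitochondria in many epithelia, showed a small difference. Normalised CPM were 19.4, 17.4 and 16.6 in controls and 19.9, 23.6 and 29.2 in AP. The groups did not overlap, but AP replicate 1 lay next to control replicate 1 and AP replicate 3 was highest. Bcl2l1 rose 1.36-fold (log2 fold change 0.44 ± 0.169, edgeR adjusted p = 0.046). This call was narrow. It ended without AP replicate 3 (0.28, adjusted p = 0.17), without AP replicate 2 (0.46, adjusted p = 0.0835) and without control replicates 1, 2 and 3 (0.52, 0.43 and 0.40, adjusted p = 0.0585, 0.109 and 0.116), and with DESeq2, limma-voom, DESeq2 size factors in edgeR and a filter of 50 counts (adjusted p = 0.0642, 0.111, 0.0552 and 0.0524).

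Mcl1, a short-lived anti-apoptotic protein that many cells need for survival, was not called. Its normalised CPM were 166, 113 and 121 in controls and 157, 141 and 157 in AP. Control replicate 1 was above every AP library, so the groups overlapped. The log2 fold change was 0.19 ± 0.162 (edgeR adjusted p = 0.331), and without control replicate 1 it was 0.38 and called (adjusted p = 0.0438; 0.317 to 0.691 without any other library). With library totals Mcl1 was higher by 2.37 (adjusted p = 1.56e-06), close to the median shift of all genes.

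**Figure D1:**
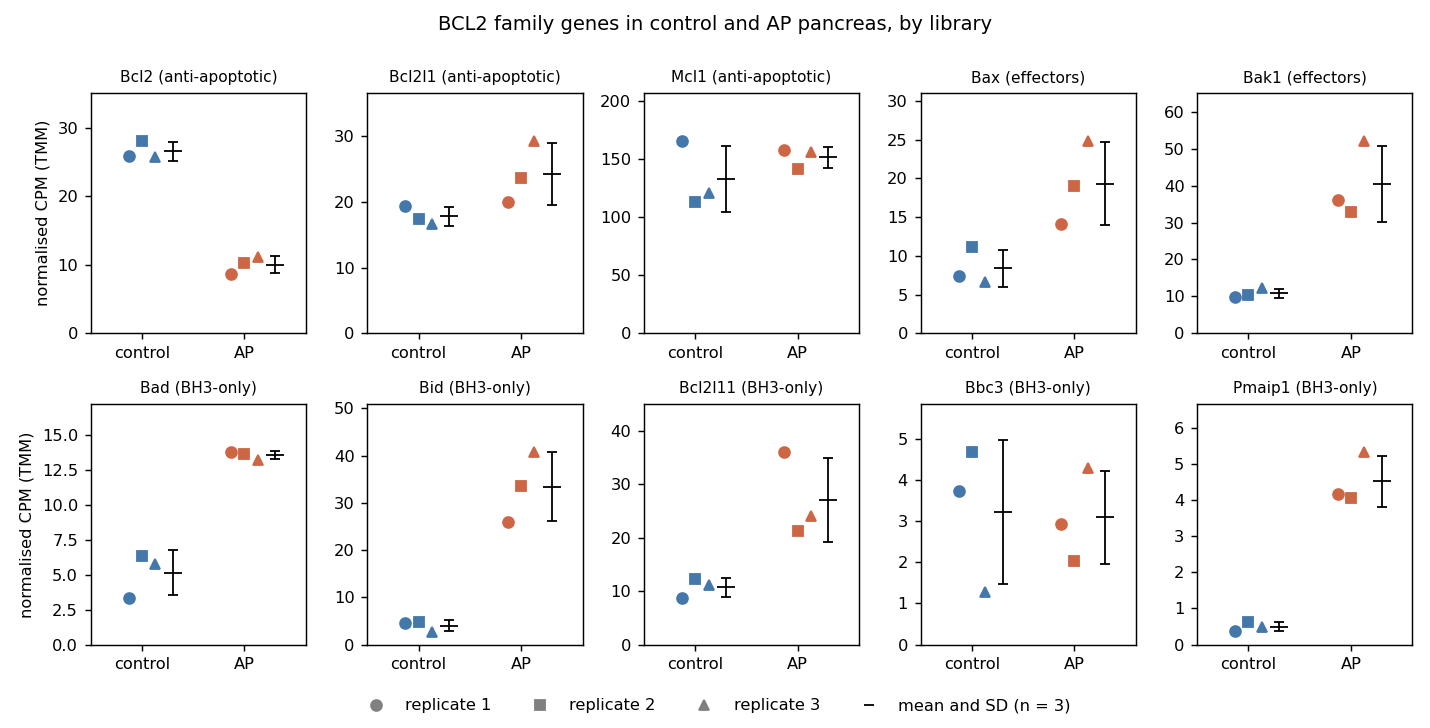
Normalised CPM (TMM scaling, linear axis from 0) of each family gene in 3 control and 3 AP libraries, with replicates 1, 2 and 3 as circles, squares and triangles and the mean and SD (n = 3) as bars. The groups were apart in 8 of the 10 panels and overlapped for Mcl1 and Bbc3, and Bcl2 was lower in AP, a direction that turned with library totals.

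Both effector genes among the 10 members rose, while their relative Bok, described below, fell with TMM scaling. BAK, encoded by Bak1, sits in the outer mitochondrial membrane and forms pores once activated. Bak1 was at 9.93, 10.4 and 12.2 normalised CPM in controls and at 36.2, 32.96 and 52.1 in AP. Every AP library was well above every control, and AP replicate 3 stood highest. Bak1 rose 3.74-fold (log2 fold change 1.90 ± 0.204, edgeR adjusted p = 6.75e-05).

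BAX is held in the cytosol until it moves to mitochondria. Bax was at 7.45, 11.1 and 6.59 normalised CPM in controls and at 14.1, 19.1 and 24.8 in AP. Its groups were apart, but the gap between control replicate 2 and AP replicate 1 was small compared with the range within AP. Bax rose 2.29-fold (log2 fold change 1.195 ± 0.269, edgeR adjusted p = 0.00444), and lay between 0.97 and 1.46 in the fits that left out 1 library.

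Among the 5 BH3-only members described here, Pmaip1 and Bid rose the most. Pmaip1 encodes NOXA, which binds MCL1. Its raw counts were 3, 5 and 3 in controls and 169, 163 and 181 in AP, which are 0.372, 0.632 and 0.482 and 4.17, 4.06 and 5.32 normalised CPM. The 3 AP libraries were close to each other and all far above the controls, whose level rests on few reads. Pmaip1 rose 9.02-fold (log2 fold change 3.17 ± 0.359, edgeR adjusted p = 9.28e-05), and 92.7% of tested genes had a lower log2 fold change.

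BID is cut by caspase-8 downstream of death receptors and so links them to mitochondria. Bid was at 4.59, 4.68 and 2.73 normalised CPM in controls and at 26.0, 33.6 and 40.7 in AP. No AP library came near the controls. Bid rose 8.23-fold (log2 fold change 3.04 ± 0.251, edgeR adjusted p = 1.57e-05), above 92.1% of tested genes.

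Bad, whose product is kept inactive by growth factor signalling through 14-3-3 proteins, and Bcl2l11, which encodes BIM, rose by similar amounts. Bad was at 3.35, 6.32 and 5.79 normalised CPM in controls and at 13.8, 13.7 and 13.2 in AP. The AP libraries differed from each other by less than the controls did. Bad rose 2.64-fold (log2 fold change 1.40 ± 0.239, edgeR adjusted p = 0.000981).

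Bcl2l11 was at 8.69, 12.3 and 11.1 normalised CPM in controls and at 36.0, 21.2 and 24.1 in AP. Here AP replicate 1 was the highest library. Bcl2l11 rose 2.54-fold (log2 fold change 1.34 ± 0.235, edgeR adjusted p = 0.00113), with values of 1.09 to 1.49 when 1 library was left out. In the RefSeq gene table Bcl2l11 overlaps Acoxl, which held 0 to 5 counts in any library. Among the other members, with pseudogenes not counted, Bcl2 overlaps 2 genes of long non-coding RNA and Bak1 overlaps 1. None of these is in the count table, so their reads could not be judged.

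Bbc3, which encodes PUMA, was the BH3-only gene with no detectable difference. It was at 3.72, 4.68 and 1.29 normalised CPM in controls and at 2.93, 2.04 and 4.29 in AP. The groups overlapped throughout, and the highest and lowest controls differed 3.64-fold, on raw counts of 37 and 8. The log2 fold change was -0.09 ± 0.46 (edgeR adjusted p = 0.875), and its sign turned with library totals (2.07, adjusted p = 0.00212) and in 3 of the 6 fits that left out 1 library.

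**Figure D2:**
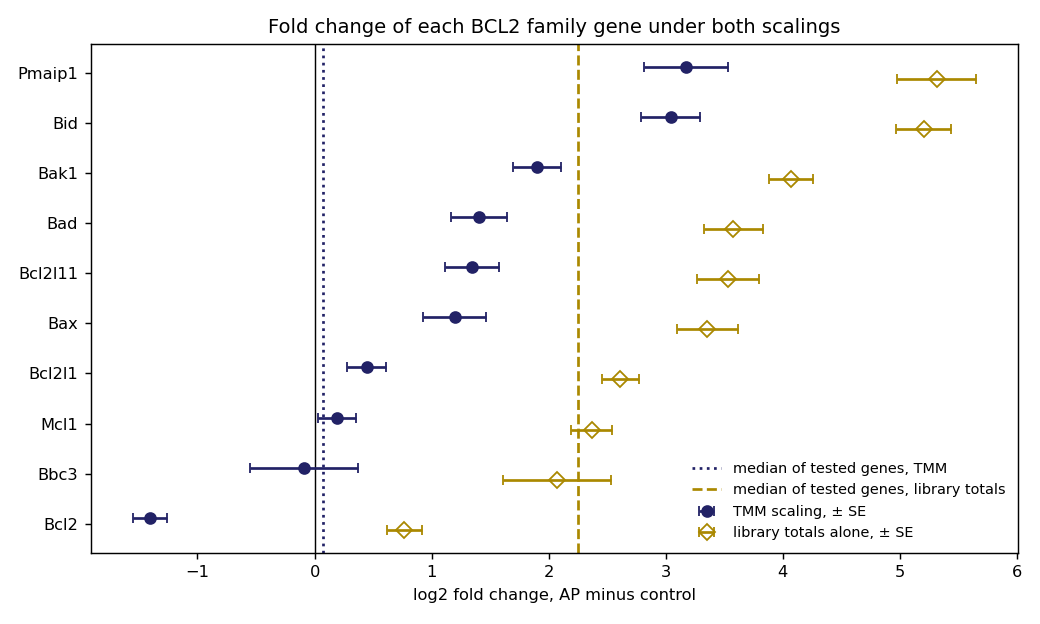
Log2 fold change (AP minus control, ± SE) of each family gene with TMM scaling (filled circles) and with library totals alone (open diamonds); vertical lines mark the median of all tested genes in each. The order of the genes was the same in both, from Bcl2 at -1.41 and 0.77 to Pmaip1 at 3.17 and 5.31, and only for Bcl2 and Bbc3 did the sign turn.

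Within each group, most members were highest in the same library. In controls 7 of the 10 were highest in replicate 2, against 31.6% of all tested genes. In AP, 7 were highest in AP replicate 3 (Bcl2, Bcl2l1, Bax, Bak1, Bid, Bbc3 and Pmaip1) and 3 in AP replicate 1 (Mcl1, Bad and Bcl2l11). Over all tested genes 36.3% were highest in AP replicate 3 and 33.6% in AP replicate 1. AP replicate 3 was also the AP library with the most acinar transcript, and its part in these levels was not tested. Without it the called members other than Bcl2l1 were still called, with log2 fold changes of -1.49 for Bcl2, 0.97 for Bax, 1.67 for Bak1, 1.41 for Bad, 2.87 for Bid, 1.41 for Bcl2l11 and 3.03 for Pmaip1.

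Ratios between members within a library do not depend on the scaling. They are ratios of counts, not of molecules, since transcript length also sets counts. The ratio of Bax to Bcl2 counts, often used as an index of apoptotic priming, was 0.288, 0.396 and 0.256 in controls and 1.61, 1.87 and 2.23 in AP. On the log2 scale with 0.5 counts added, it went from -1.69 ± 0.322 to 0.92 ± 0.234 (SD, n = 3 each), a difference of 2.60 or 6.08-fold. All AP libraries were above all controls, and the two-sided exact permutation p was 0.1, the smallest that 3 against 3 samples allow. Such separation in either direction was common, with no overlap between the groups in 71.1% of all pairs of tested genes.

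The ratio of Bcl2l1 to Bcl2 counts was 0.75, 0.622 and 0.644 in controls and 2.29, 2.30 and 2.63 in AP, a log2 difference of 1.84 (exact permutation p = 0.1, the smallest possible). The groups did not overlap, and the libraries within each were close. The log2 ratio of Bcl2l1 to Mcl1, in contrast, overlapped between the groups (difference 0.22). The log2 ratio of Pmaip1 to Mcl1, the transcripts of NOXA and its partner, was -8.57, -7.35 and -7.74 in controls and -5.24, -5.12 and -4.87 in AP, a difference of 2.81 (exact permutation p = 0.1). Adjusted over these 3 ratios by Benjamini-Hochberg, each p was again 0.1.

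Over all 45 pairs of members, the log2 ratio of counts did not overlap between the groups in 31 (68.9%). Over all pairs of tested genes the share was 71.1%, so the family's share was near that of other genes. Bcl2 was lower relative to every one of the 9 others, with no overlap in any pair. Bid and Pmaip1 were each higher relative to 8 of the 9 others, and the ratio of Bid to Pmaip1 overlapped between the groups (log2 difference 0.03). The ratios among Bax, Bak1, Bad and Bcl2l11 overlapped between the groups in each of their 6 pairs.

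**Figure D3:**
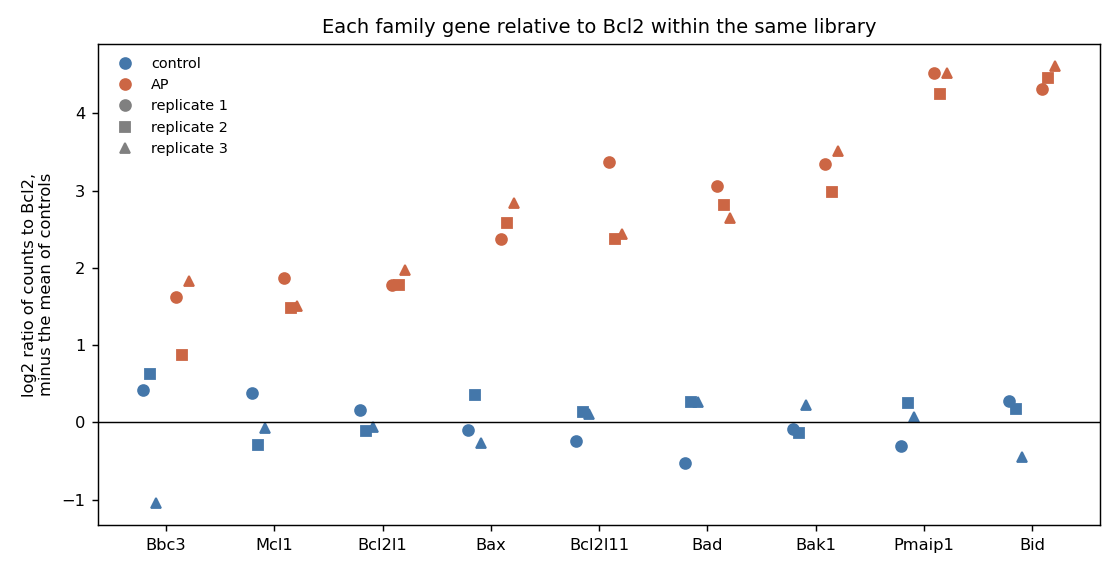
Log2 ratio of each family gene's counts to those of Bcl2 in the same library, minus the mean of the 3 controls, for control (blue) and AP (orange) libraries. All AP points lie above all control points for every gene, and the rise is smallest for Bbc3 (1.44) and largest for Bid (4.47).

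Other genes of the BCL2 family changed in both directions. Of 13 listed, 12 were in the table and 10 passed the filter, and of these 5 rose and 5 fell by edgeR's quasi-likelihood test, with a median log2 fold change of 0.08. Over all tested genes 34.1% were higher and 30.5% lower, with a median of 0.07, so the median of the list was close to that of all genes. With library totals 9 rose and none fell, where 88.2% of all tested genes rose. Bcl2a1, an NF-kB target that protects leukocytes, was at 0.745, 1.64 and 1.29 normalised CPM in controls and at 32.8, 73.9 and 78.0 in AP. Its AP libraries spread widely but all stood far above the controls. The log2 fold change of Bcl2a1, 5.65 ± 0.447, was the largest of the whole family (edgeR adjusted p = 1.26e-05). Leukocyte markers rose in 6 of 6 cases, and the part of leukocytes in the rise of Bcl2a1 was not tested. In the RefSeq gene table Bcl2a1 overlaps RGD1560775, which held 7 to 21 counts in AP against 1329 to 2970 of Bcl2a1.

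The other members that rose were Bmf, Bik, Bcl2l12 and Bcl2l13. Bmf, a BH3-only gene linked to loss of cell attachment, rose 3.53-fold (log2 fold change 1.82 ± 0.261, edgeR adjusted p = 0.000364), and like Bcl2l11 it was highest in AP replicate 1 (50.8 normalised CPM, against 29.4 and 27.9). Bik, a BH3-only gene of the endoplasmic reticulum, had 1, 0 and 3 control counts and 96, 60 and 94 AP counts. Its log2 fold change of 3.55 ± 0.731 (adjusted p = 0.00278) was 5.04 without control replicate 3 and 2.94 without control replicate 2. Bcl2l12 (1.96 ± 0.268) and Bcl2l13 (0.78 ± 0.139), an outer membrane protein with a role in mitophagy, rose as well. In the RefSeq gene table Bcl2l12 overlaps Irf3, so that the reads of Bcl2l12 are uncertain. Raw counts of Irf3 were 190 to 259 in controls and 501 to 767 in AP, against 8 to 15 and 221 to 265 of Bcl2l12.

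Those that fell were Bcl2l2, Bok, Bcl2l14, Bnip3 and Bnip3l, and each but Bnip3 turned to higher in AP with library totals (0.96, 0.67, 1.01 and 1.57 in that order). Bcl2l2, which encodes the anti-apoptotic BCL-W, was at 64.1, 48.9 and 68.3 normalised CPM in controls and at 28.3, 24.4 and 24.6 in AP. It fell by 1.23 ± 0.15 on the log2 scale (edgeR adjusted p = 0.000145), close to the change of Bcl2. Bok, an effector relative of BAX and BAK, fell 2.83-fold (log2 fold change -1.503 ± 0.219, adjusted p = 0.000403), where Bax and Bak1 rose. Bnip3, a BH3-domain mitophagy receptor, fell by 2.25 ± 0.212 (adjusted p = 3.25e-05) and stood at -0.08 with library totals, not called. Its relative Bnip3l fell by 0.62 ± 0.133. Bcl2l14 fell by 1.15 ± 0.348 (adjusted p = 0.0186), a call that ended when control replicate 1 or 2 or AP replicate 1 or 2 was left out (adjusted p = 0.053, 0.0625, 0.0584 and 0.0529).

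Downstream of the family, in the list of mitochondrial release and the apoptosome, 3 of 15 tested genes rose and 7 fell, with a median log2 fold change of -0.13. The 10 calls of 15 were near the 64.6% called over all tested genes. With library totals 14 rose and none fell, near the 88.2% of all genes that rose. Apaf1, the scaffold of the apoptosome, was at 11.7, 13.8 and 16.4 normalised CPM in controls and at 64.5, 55.8 and 58.3 in AP, a 4.29-fold rise (log2 fold change 2.10 ± 0.15, edgeR adjusted p = 7.53e-06). Casp9, the caspase that APAF1 activates, fell by 1.33 ± 0.176 (adjusted p = 0.000233) but was higher by 0.85 with library totals. Birc3, an inhibitor of apoptosis induced by NF-kB, rose by 1.69 ± 0.243 (adjusted p = 0.000366).

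On the route from death receptors to Bid, 5 of 8 tested genes rose and none fell, with a median of 0.98, and with library totals all 8 rose. Over all tested genes 34.1% rose with TMM and 88.2% with library totals, and the 5 calls of 8 were near the 64.6% called in either direction. Casp8, the protease that cuts BID, was at 10.3, 9.22 and 8.84 normalised CPM in controls and at 21.4, 20.6 and 22.3 in AP (log2 fold change 1.18 ± 0.138, edgeR adjusted p = 0.000115). Each group was tight and the groups were well apart. The receptor gene Tnfrsf1a (1.56 ± 0.209) and the adaptor gene Fadd (0.79 ± 0.152) rose too. Cflar, which encodes the caspase-8 inhibitor c-FLIP, was not called (-0.22 ± 0.143, adjusted p = 0.214), and with library totals it was higher by 1.96.

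Of the transcription factors and cofactors known to act on BH3-only genes, 4 of 6 tested fell, with a median of -0.92, whereas 1 fell with library totals. Over all tested genes 30.5% and 4.32% fell. Atf4, the effector of the integrated stress response, fell by 2.55 ± 0.197 (adjusted p = 1.1e-05) and was still lower with library totals (-0.39, adjusted p = 0.0442). Its target Trib3 fell by 3.24 ± 0.509, stood at -4.14 without AP replicate 3, and was at -1.10 with library totals (adjusted p = 0.0512). Foxo3, a known activator of Bcl2l11, fell by 1.18 ± 0.209 while Bcl2l11 rose, and turned to 1.01 with library totals.

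Among partners and turnover factors of the proteins, 4 of 12 tested genes rose and 5 fell, with a median of 0.13, whereas 11 rose and 1 fell with library totals. Of all tested genes 34.1% rose and 30.5% fell with TMM, and 88.2% rose with library totals. The 14-3-3 genes Ywhab and Ywhaz, whose products hold phosphorylated BAD, rose by 1.51 ± 0.113 and 1.12 ± 0.143 (edgeR adjusted p = 9.71e-06 and 0.000185). The third 14-3-3 gene of the list, Ywhae, was not called (0.13 ± 0.136, adjusted p = 0.418) and its groups overlapped. Tpt1, whose product binds MCL1, went from 4394, 4095 and 3855 to 571, 581 and 679 normalised CPM. It fell by 2.75 ± 0.254 (adjusted p = 2.88e-05) and by 0.58 with library totals (adjusted p = 0.0208).

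**Figure D4:**
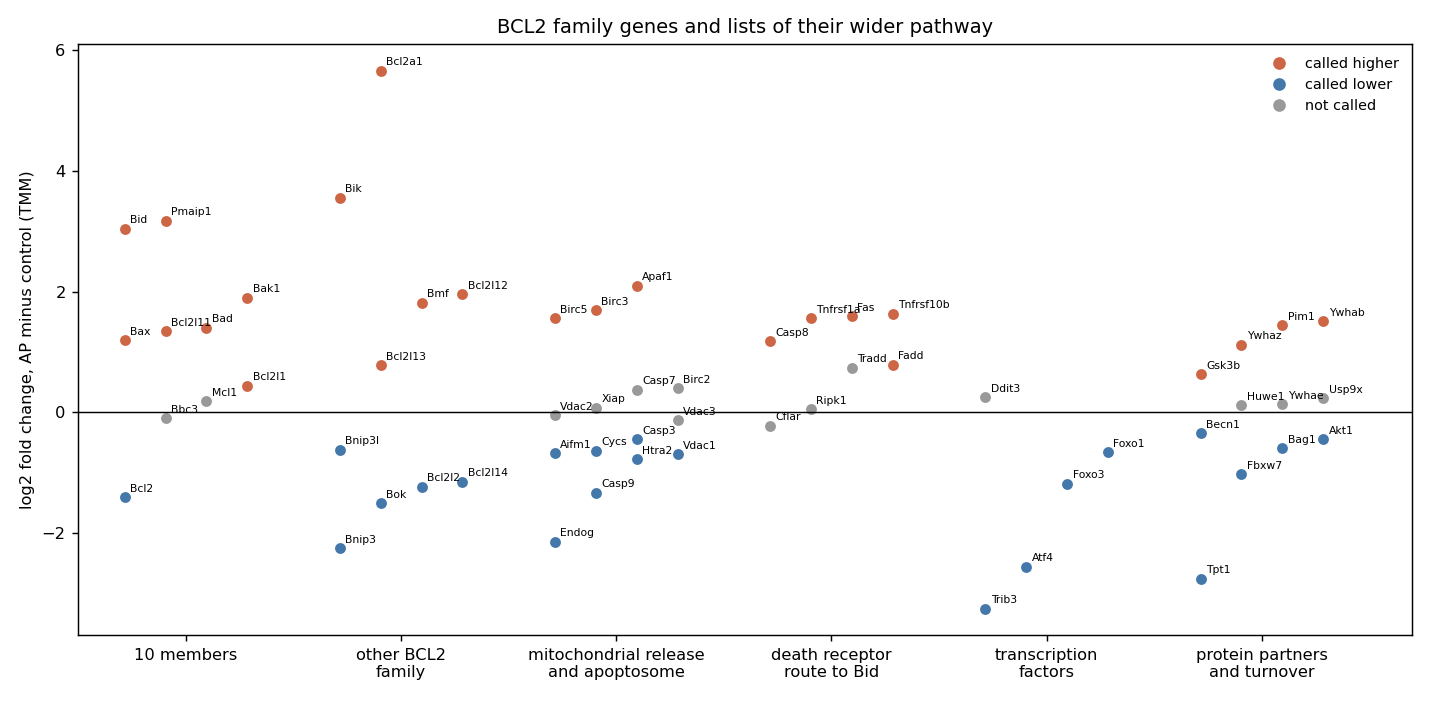
Log2 fold change (AP minus control, TMM scaling) of the 10 family genes and of the tested genes in 5 lists of the wider pathway except 1 transcription factor gene that is not shown, each dot a gene, coloured by its call at an adjusted p under 0.05. Values run from -3.24 for Trib3 to 5.65 for Bcl2a1, and most genes shown as lower were higher with library totals.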

How the data were processed

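The authors deposited 1 table of raw read counts per gene, whole numbers without normalisation, for 6 samples of poly(A) RNA (150 bp reads, fragments of about 300 bp, per the labels' protocols). Per the submitters' processing notes, the tools were FastQC, STAR, featureCounts and DESeq2 and the build mRatBN7.2. For strand setting and versions, nothing is stated there. Reads of a gene and of an overlapping one on the other strand may therefore be mixed.

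Rows without a gene name (3110 of 23096, with 1.41% to 7.69% of the counts of a library) were left out, and rows of the 185 symbols listed more than once were summed. Replicate libraries differed beyond sampling noise (chi-square of 39.5 to 148 per gene). Whether each sample was a separate animal is not stated, and p-values therefore cover the spread between these samples only. edgeR 4.0.16 (R 4.3.3) fitted AP against control by its quasi-likelihood test with TMM, the default filter and Benjamini-Hochberg adjustment over 13240 genes. It was also tested on simulated data in which most genes were unchanged and rises and falls were balanced. That test therefore does not bear on the choice of scaling here. SE is the size of the log2 fold change divided by the root of F.

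Members and lists were chosen with earlier results of these data known. Named were all 10 members, each called gene of the other BCL2 family, and the 3 genes with the lowest p of each further list. Cflar, Ywhae, the overlapping genes and the sequence motifs were chosen after their values were seen. The results of 1 listed gene and 1 sequence motif are not reported here. The alternatives were 3 other scalings of the libraries and TMM without acinar markers, DESeq2 1.42.0, limma-voom (limma 3.58.1), a filter dropped or raised to 50 counts in 3 samples, a block for the replicate number, unnamed rows kept, a pseudocount of 1 for ratios, and each library left out.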

Additional observations from a re-analysis of the deposited data

How the results depend on the processing

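Among the alternatives, only library totals moved the counts over all genes or over the 10 family genes by more than 1.5 times: 11680 genes were then higher and 572 lower in AP (95.3% of calls higher, against 52.9% with TMM), and 0 family genes were lower. Among the named genes, the log2 fold changes that changed sign with that scaling were 0.77 for Bcl2, 2.07 for Bbc3, 0.96 for Bcl2l2, 0.67 for Bok, 1.01 for Bcl2l14, 1.57 for Bnip3l, 0.85 for Casp9 and 1.01 for Foxo3. Those of Cflar (1.96) and of the markers Iapp (1.47), Kdr (1.59) and Cftr (1.06) changed sign as well. Bbc3 also turned without control replicates 1 and 2 (0.02 and 0.27) and without AP replicate 2 (0.14), with a range of -0.44 to 0.27 over the 6 libraries left out. The cause was not tested. Family genes called higher numbered 6 to 7 in every alternative but library totals. Bax, Bak1, Bad, Bid, Bcl2l11 and Pmaip1 were called higher in all 16 alternatives. The 3 ratios kept their direction in all of theirs, but most of these could not have reversed it. Their groups did not overlap, so leaving out a library could not turn them, and the block leaves the differences as they are.

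Replicate numbers showed no sign of pairing: deviations of libraries with the same number correlated at -0.03, 0.03 and -0.11 over 13240 genes. Those with different numbers correlated at -0.12 to 0.14. With 3 libraries per group, such correlations cannot exclude pairing. With the replicate number as a block, 4200 genes were higher and 3704 lower, with 6 family genes higher and 1 lower (Bcl2l1 was the one no longer called, adjusted p = 0.0885). For the Bax to Bcl2 ratio the block leaves the difference of 2.60 as it is by construction, and its exact p of 0.25 is the smallest that 3 pairs allow. Not every library correlated best with its own number. Depth limits Pmaip1 (3 to 5 counts in a control), Bik (0 to 3) and Bbc3 (8 to 37).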
